A study of Mus musculus with 20 samples.

Results

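The sirtuins are the family of enzymes that remove acetyl and other acyl groups from lysines at the expense of NAD+. The mouse genome encodes Sirt1 to Sirt7, and all 7 members were found by symbol among the 47729 gene identifiers of the count table. Hippocampal RNA from male C57BL/6 mice gave 20 libraries in 4 groups of 5. The groups were 24-month-old mice exposed to an enriched environment (24mEE) or held in standard cages (24mSC), and 5-month-old mice in enrichment (5mEE) or in standard cages (5mSC). Per the study's methods, enriched cages held running wheels, platforms and tunnels, and the 24mEE mice came from standard cages and entered them only late in life; the methods do not describe the 5mEE mice. The study asked how age and late-onset enrichment affect hippocampal gene expression, and the 7 sirtuins are read out here for age in standard cages, age in enrichment, enrichment at either age, and the interaction of age and enrichment.

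Because NAD+ is their co-substrate, sirtuin activity is linked to the energy state of the cell, and the family has been studied widely in ageing and in metabolism. Its members differ in place: SIRT1, SIRT6 and SIRT7 are mainly nuclear, SIRT2 is mainly cytoplasmic, and SIRT3, SIRT4 and SIRT5 are mitochondrial. In brain, SIRT2 is known as a protein of oligodendrocytes and of the myelin they make. Messenger RNA was measured here, which gives neither the amount nor the activity of these enzymes.

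The libraries held 10.96 to 34.1 M counts on genes, and levels are CPM, counts scaled to a fixed library total, after TMM scaling. Every sirtuin was counted in every library, with 83 to 4251 counts, and all 7 passed the filter on low counts. Library 5mSC replicate 3 stood apart: mitochondrial ribosomal RNA took 26.8% of its counts, against 0.883% to 1.82% in the other 19 libraries, and its summed level of 7 choroid plexus markers, 376 CPM, was the highest of all. The biological coefficient of variation across genes was 17.4% with all libraries and 9.88% without 5mSC replicates 1 and 3. Replicate 1 did not stand apart in mitochondrial ribosomal RNA, at 1.44%. Its median correlation with the libraries of its group was 0.982, against 0.928 for replicate 3. The other 5mSC libraries had 0.985 to 0.988, and the libraries of the other groups 0.990 to 0.993. The main values that these libraries move are also given without replicate 3 or without both. Leaving out both was chosen with earlier results of these data known. Markers of neurons (8 genes), dentate granule cells (7), astrocytes (8), microglia (7) and mature oligodendrocytes (11) were all counted. Bulk RNA was measured, so that fewer cells of a type and less RNA per cell cannot be told apart. Nothing in the labels says which libraries share a cage or a sequencing run, and the p values measure the spread between these libraries.

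Divided by the length of their exons, merged over all annotated transcripts of a gene, the sirtuins kept a nearly fixed order. Sirt2 was the most abundant at 23.4 CPM per kilobase on average over 20 libraries, and it made up 40.5% of the summed per-kilobase level of the family. Sirt3 followed at 10.3, Sirt4 at 7.42, Sirt7 at 6.29, Sirt6 at 5.35, Sirt1 at 3.59 and Sirt5 at 1.55 CPM per kilobase. Sirt2 exceeded Sirt3 in 20 of 20 libraries, and the same count held for Sirt6 over Sirt1 and for Sirt1 over Sirt5. Sirt3 exceeded Sirt4 in 19 libraries, with 5mSC replicate 3 as the exception. The middle of the order was less distinct, since Sirt4 exceeded Sirt7 in 16 libraries and Sirt7 exceeded Sirt6 in 18, and the ranges of these neighbours overlapped. By CPM alone the means were 118 (Sirt2), 61.7 (Sirt3), 32.4 (Sirt7), 19.2 (Sirt1), 17.8 (Sirt4), 14.9 (Sirt6) and 9.44 (Sirt5). The places of Sirt1, Sirt4, Sirt6 and Sirt7 thus depend on the lengths used.

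**Figure D1:**
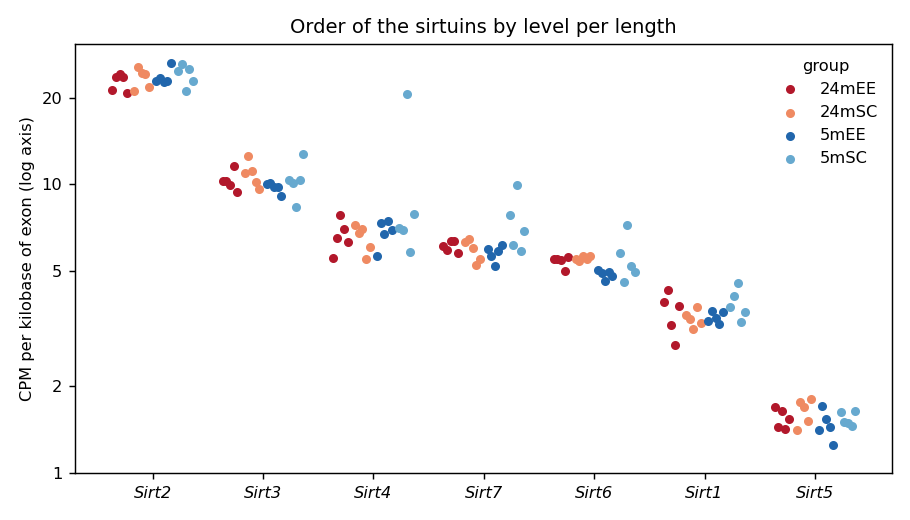
CPM per kilobase of exon (log axis) of each sirtuin in the 20 libraries, coloured by group, with genes ordered by their mean. Sirt2 is highest, with a mean of 23.4, and Sirt5 lowest, with a mean of 1.55, in all 4 groups, and 1 point of Sirt4, 5mSC replicate 3, lies far above the others.

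None of the 7 sirtuins passed the test in any comparison. With edgeR's quasi-likelihood test over 16692 genes and an adjusted p under 0.05, 0 of 7 passed between 24mSC and 5mSC, where 0.803% of all genes were called (78 higher and 56 lower). Between 24mEE and 24mSC 0 of 7 passed, with 0% of all genes called, and likewise between 5mEE and 5mSC, with 0% of all genes called. Between 24mEE and 5mEE 0 of 7 passed, where 0.108% of all genes were called, and for the interaction 0 of 7 passed, with 0% of all genes called. At an unadjusted p under 0.05 the number of sirtuins was 2 for age in standard cages, 1 for enrichment at 5 months, 1 for the interaction and 0 for the other comparisons. Over all genes those numbers were 3415 (20.5%) for age in standard cages, 2759 (16.5%) for enrichment at 5 months and 1336 (8%) for the interaction. They were 1037 (6.21%) for enrichment at 24 months and 769 (4.61%) for age in enrichment. The 2 sirtuins for age in standard cages were Sirt4 and Sirt7. Their unadjusted edgeR p values were 0.398 and 0.0346 without 5mSC replicate 3, and 0.511 and 0.210 without 5mSC replicates 1 and 3. In the latter fit that of Sirt6 was 0.0134. The Wald test of DESeq2 also called 0 of 7 in each comparison.

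The fold changes were small. The median log2 fold change of the 7 sirtuins was -0.04 between 24mSC and 5mSC (-0.08 without 5mSC replicates 1 and 3), -0.03 between 24mEE and 24mSC and 0.07 between 24mEE and 5mEE, beside medians over all genes of -0.01, 0.00 and 0.00. Between 5mEE and 5mSC all 7 fold changes were negative, with a median of -0.15 beside -0.02 over all genes. The comparisons share groups, and this one shares the 5mSC libraries with that of age in standard cages. Without 5mSC replicates 1 and 3 the median between 5mEE and 5mSC was -0.07.

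**Figure D2:**
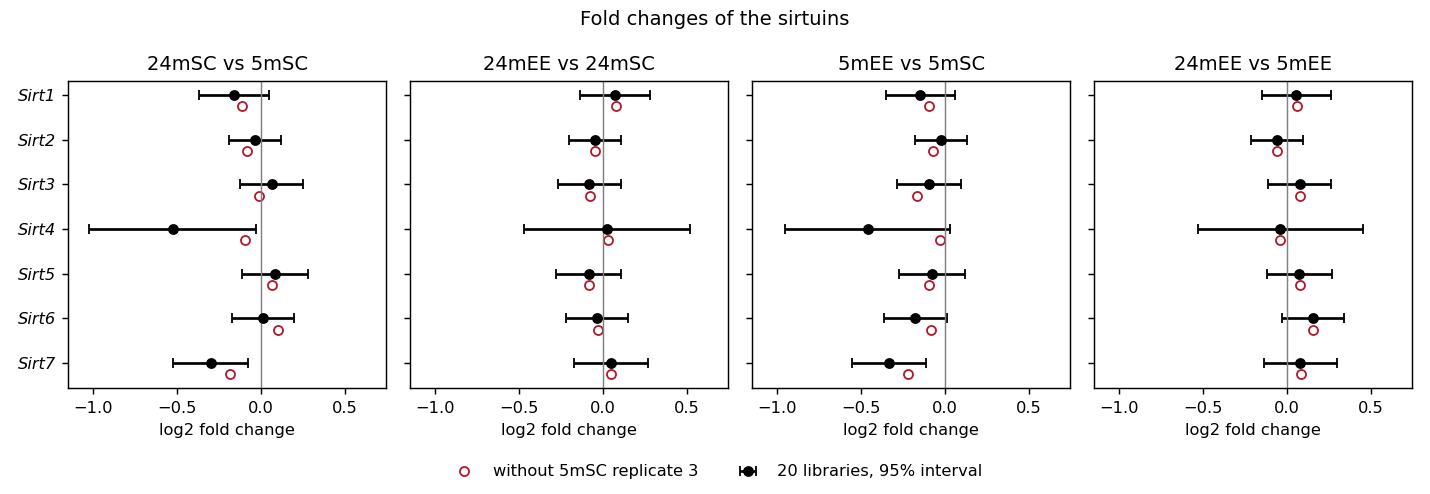
Log2 fold changes of the 7 sirtuins in 4 comparisons from edgeR, with black points and bars for the fit of 20 libraries and its 95% interval, and open red points for the fit without 5mSC replicate 3. In 24mSC against 5mSC, Sirt4 lies at -0.53 with all libraries and at -0.10 without that library, whereas in 24mEE against 24mSC every interval includes 0.

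Sirt1 encodes the nuclear deacetylase of p53, FOXO factors and PGC-1α. Sirt1 was at 20.8, 22.9, 17.4, 14.8 and 20.2 CPM in the 24mEE libraries and 18.9, 18.2, 16.8, 19.98 and 17.7 CPM in the 24mSC libraries. It was at 17.96, 19.4, 18.4, 17.5 and 19.2 CPM in the 5mEE libraries and 20.05, 21.8, 24.2, 17.8 and 19.2 CPM in the 5mSC libraries. The 5mSC libraries held the single highest value, in replicate 3, and the 24mEE libraries the single lowest, in replicate 4, and all groups overlapped. Sirt1 averaged 18.3 ± 1.21 CPM in 24mSC against 20.6 ± 2.49 CPM in 5mSC (SD, n = 5 each). The log2 fold change of 24mSC over 5mSC was -0.16 ± 0.10 (SE), with a 95% interval of -0.37 to 0.05 and an edgeR adjusted p of 0.373. Without 5mSC replicate 3 this log2 fold change was -0.11 (edgeR adjusted p = 0.519), and without 5mSC replicates 1 and 3 it was -0.10 (adjusted p = 0.640). For 24mEE over 24mSC it was 0.07 ± 0.10 (95% interval -0.14 to 0.28, edgeR adjusted p = 0.999).

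Sirt6 encodes a chromatin-bound deacylase that acts on histone H3 and takes part in DNA repair. Sirt6 was at 15.4, 15.3, 15.2, 13.9 and 15.7 CPM in the 24mEE libraries and 15.4, 15.1, 15.7, 15.4 and 15.7 CPM in the 24mSC libraries. It was at 14.1, 13.8, 12.9, 13.8 and 13.4 CPM in the 5mEE libraries and 16.1, 12.7, 20.2, 14.5 and 13.8 CPM in the 5mSC libraries. The 24mSC values lay close together, and their coefficient of variation of 1.46% was below the 5.63% that counting alone gives at 285 to 385 counts. Every 24mEE library but replicate 4 lay above all 5mEE libraries. All 24mSC libraries lay above the 5mEE libraries too, though these groups differ in both age and housing. The share of all genes with such an order is not given here. Sirt6 averaged 15.1 ± 0.685 CPM in 24mEE and 13.6 ± 0.467 CPM in 5mEE (SD, n = 5 each). The log2 fold change of 24mEE over 5mEE was 0.15 ± 0.09 (SE), with a 95% interval of -0.03 to 0.34 and an edgeR adjusted p of 0.9997, and without 5mSC replicates 1 and 3 it was 0.15 ± 0.05 with an adjusted p of 0.230. For 24mSC over 5mSC the log2 fold change was 0.01 ± 0.09 with all libraries (edgeR adjusted p = 0.960). It was 0.10 ± 0.07 without 5mSC replicate 3 (edgeR adjusted p = 0.397) and 0.17 ± 0.06 without 5mSC replicates 1 and 3 (adjusted p = 0.136).

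Sirt7 encodes the sirtuin of the nucleolus, which is linked to transcription of ribosomal RNA genes. Sirt7 was at 31.5, 30.6, 32.8, 32.6 and 29.9 CPM in the 24mEE libraries and 32.5, 33.4, 31.01, 27.1 and 28.5 CPM in the 24mSC libraries. It was at 30.8, 29.1, 26.9, 30.3 and 31.7 CPM in the 5mEE libraries and 40.3, 31.6, 51.3, 30.4 and 35.5 CPM in the 5mSC libraries. In 5mSC, replicates 1, 3 and 5 lay above every library of the other groups, while replicates 2 and 4 lay among them. Sirt7 averaged 30.5 ± 2.67 CPM in 24mSC against 37.8 ± 8.46 CPM in 5mSC, and it averaged 29.8 ± 1.87 CPM in 5mEE (SD, n = 5 each). The log2 fold change was -0.30 ± 0.11 for 24mSC over 5mSC (95% interval -0.52 to -0.08, edgeR adjusted p = 0.130) and -0.34 ± 0.11 for 5mEE over 5mSC (95% interval -0.56 to -0.11, adjusted p = 0.223). The interaction was 0.38 ± 0.15 on the log2 scale (edgeR adjusted p = 0.621), and it was 0.27 without 5mSC replicate 3 (adjusted p = 0.501) and 0.18 without 5mSC replicates 1 and 3 (adjusted p = 0.594). Without 5mSC replicate 3 the values were -0.19 for 24mSC over 5mSC (edgeR adjusted p = 0.187) and -0.22 for 5mEE over 5mSC (adjusted p = 0.337). Without 5mSC replicates 1 and 3, which held the highest Sirt7 levels, these values were -0.10 and -0.13.

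Sirt2 encodes the cytoplasmic deacetylase of α-tubulin. It lies on chromosome 7 of GRCm38 at 28766735 to 28788661, forward strand. Its promoter window is printed because it belongs to the most abundant member, with capitals on the CCAAT boxes found (RefSeq, GRCm38.p6, chr7:28766502-28766801, forward strand, 250 bases before the start to 50 after it).
Sirt2: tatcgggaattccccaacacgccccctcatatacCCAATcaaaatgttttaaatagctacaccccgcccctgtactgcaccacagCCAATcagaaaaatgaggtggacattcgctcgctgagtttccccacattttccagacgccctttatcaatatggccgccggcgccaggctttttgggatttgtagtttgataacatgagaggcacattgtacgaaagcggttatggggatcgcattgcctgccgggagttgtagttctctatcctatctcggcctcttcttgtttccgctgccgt
The window holds 2 CCAAT matches, searched on both strands, and 37.4% of 32851 mouse promoter windows of this length hold at least 1. In all 7 motifs were searched on both strands in the 9 windows of the 7 genes, 17 of these 63 pairs had a match, and the CCAAT boxes of Sirt2 were chosen for display after the matches were seen. CCAAT was found in windows of 3 genes. The GC box (GGGCGG) was found in windows of 6 genes and in 35.7% of all promoter windows. The ETS motif (CCGGAAG) was found for 3 genes and in 8.86% of all windows. The short CRE (TGACG) was found for 3 genes and in 20.8% of all windows, and the full CRE (TGACGTCA, which contains it) for 0 genes and in 1.79%. The E-box (CACGTG) was found for 1 gene, Sirt1, and in 7.15% of all windows. The NRF1 motif was found for 1 gene, Sirt6, and in 0.971%. A match describes the letters of the window only.

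Sirt2 was at 107, 118, 122, 118 and 104 CPM in the 24mEE libraries and 106, 129, 122, 122 and 109 CPM in the 24mSC libraries. It was at 115, 118, 114, 115 and 133 CPM in the 5mEE libraries and 125, 131, 106, 126 and 115 CPM in the 5mSC libraries. All 20 libraries lay within 104 to 133 CPM, and the groups overlapped. Sirt2 averaged 114 ± 7.78 CPM in 24mEE, 118 ± 9.58 in 24mSC, 119 ± 7.82 in 5mEE and 121 ± 10.03 in 5mSC (SD, n = 5 each). The log2 fold change was -0.04 ± 0.07 for 24mSC over 5mSC (95% interval -0.19 to 0.12, edgeR adjusted p = 0.823) and -0.05 ± 0.07 for 24mEE over 24mSC (95% interval -0.20 to 0.11, adjusted p = 0.999). Without 5mSC replicate 3 the value for 24mSC over 5mSC was -0.09 (edgeR adjusted p = 0.476).

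Sirt2 varied between libraries with the markers of mature oligodendrocytes. The mean log2 CPM of 11 such markers (Mbp, Mog, Mag, Mobp, Cnp, Cldn11, Mal, Opalin, Ermn, Aspa and Ugt8a) served as a score, and Sirt2 is not among them. Each sirtuin entered the correlation as log2 CPM. Over 20 libraries Sirt2 and the score had a Pearson r of 0.82 and a Spearman rho of 0.83, with Benjamini-Hochberg adjusted permutation p values of 0.00014 and 7e-05 over the 7 sirtuins (two-sided, 100000 resamples, raw p of 2e-05 and 1e-05; 1e-05 is the smallest the resamples can give). As deviations from the group means the values were r = 0.90 and rho = 0.89 (permutation, adjusted p = 0.00014 for each). Without the libraries farthest from the median score, 5mSC replicate 3 and 24mSC replicate 2, r was 0.77 (permutation, adjusted p = 0.00147). For the other 6 sirtuins r over the 20 libraries lay between -0.25 and 0.27, with adjusted permutation p values of 0.588 and above. As deviations from the group means the value farthest from 0 among these 6 was that of Sirt6, with r = -0.38 and rho = -0.45 (permutation, adjusted p = 0.242 and 0.20). The points share libraries and scaling.

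**Figure D3:**
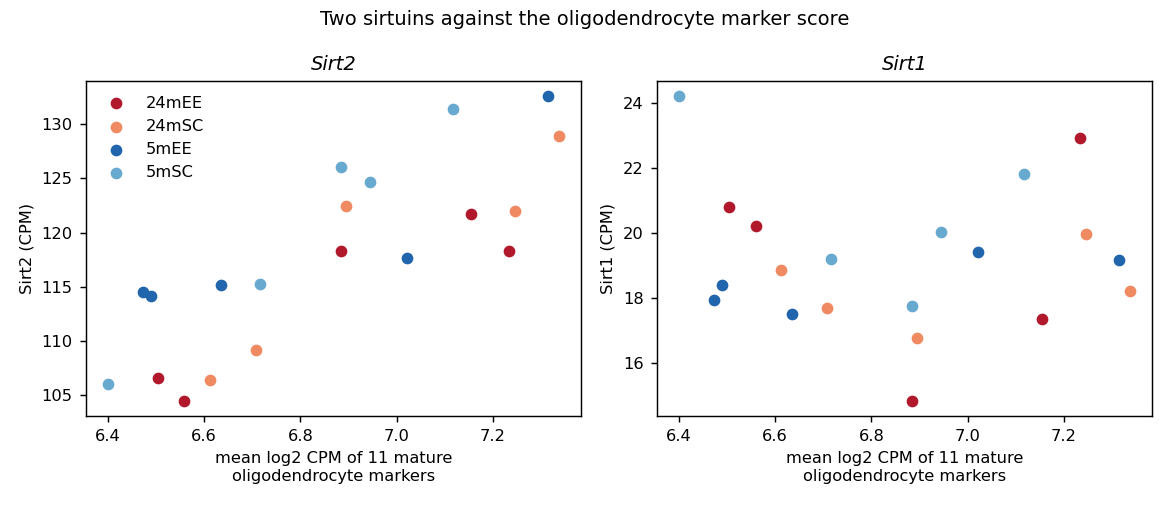
CPM of Sirt2 (left) and of Sirt1 (right) against the mean log2 CPM of 11 mature oligodendrocyte markers, 1 point for each of the 20 libraries, coloured by group. Sirt2 is higher in libraries with a higher score (r = 0.82), and Sirt1 shows no such order (r = -0.03), with r taken on log2 CPM of each gene.

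The markers themselves did not separate the groups. Mbp, a main protein of myelin, averaged 2704 ± 656 CPM in 24mEE, 2825 ± 662 in 24mSC, 2358 ± 613 in 5mEE and 2429 ± 568 in 5mSC (SD, n = 5 each). Mog, a surface protein of myelin, averaged 45.4 ± 12.1 CPM in 24mSC and 44.8 ± 10.5 in 5mSC. The summed level of the 11 markers ranged from 3303 to 5447 CPM in 24mEE, 3562 to 5858 in 24mSC, 3011 to 5517 in 5mEE and 2464 to 4751 in 5mSC. None of the 11 passed in any comparison and none was at 0.

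Sirt3 encodes the main deacetylase of the mitochondrial matrix. It lies on chromosome 7 at 140863666 to 140882309, reverse strand, head to head with Psmd13, a proteasome subunit gene on the forward strand. Of the 5973 exon bases of Sirt3, 12.7% are also exon of another counted gene, 342 bases of Psmd13 at the start and 418 of Ric8a at the end. The upstream RefSeq window is printed to show this overlap, with capitals on the 50 bases that are exon of both Sirt3 and Psmd13 (GRCm38.p6, chr7:140882260-140882559, reverse strand).
Sirt3: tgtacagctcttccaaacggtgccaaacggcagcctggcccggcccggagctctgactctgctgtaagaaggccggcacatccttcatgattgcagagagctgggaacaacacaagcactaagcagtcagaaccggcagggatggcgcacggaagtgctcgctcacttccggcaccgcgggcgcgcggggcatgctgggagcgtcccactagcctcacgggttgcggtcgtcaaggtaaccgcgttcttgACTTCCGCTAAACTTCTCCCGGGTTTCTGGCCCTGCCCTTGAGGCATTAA
The library kit does not mark the strand, so that reads from shared bases cannot be assigned to either gene by strand.

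Sirt3 was at 61.5, 61.5, 59.3, 68.97 and 56.2 CPM in the 24mEE libraries and 65.3, 75.2, 66.5, 60.7 and 57.5 CPM in the 24mSC libraries. It was at 59.9, 60.2, 58.3, 58.4 and 54.5 CPM in the 5mEE libraries and 62.05, 60.5, 49.7, 61.7 and 76.2 CPM in the 5mSC libraries. The 5mSC libraries held both the highest value, in replicate 5, and the lowest, in replicate 3, and the other groups lay between them. Sirt3 averaged 65.05 ± 6.74 CPM in 24mSC against 62.04 ± 9.41 CPM in 5mSC (mean ± SD of 5 libraries), with a log2 fold change of 0.06 ± 0.09 (95% interval -0.12 to 0.25, edgeR adjusted p = 0.730). Its sign turned without 5mSC replicate 3, at -0.01 (edgeR adjusted p = 0.954), and without 5mSC replicates 1 and 3, at -0.03 (adjusted p = 0.877). For 24mEE over 24mSC it was -0.08 ± 0.09 (95% interval -0.27 to 0.11, edgeR adjusted p = 0.999). Psmd13 averaged 73.9 ± 3.45 CPM in 24mSC against 70.7 ± 19.2 CPM in 5mSC, and Ric8a averaged 62.9 ± 2.16 CPM in 24mSC against 61.9 ± 9.86 CPM in 5mSC, and neither passed in any comparison.

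Sirt4 encodes a mitochondrial enzyme that acts on glutamate dehydrogenase, among other targets. Sirt4 was at 13.3, 15.7, 18.8, 16.8 and 15.1 CPM in the 24mEE libraries and 17.3, 16.3, 16.8, 13.2 and 14.6 CPM in the 24mSC libraries. It was at 13.6, 17.7, 16.2, 17.9 and 16.7 CPM in the 5mEE libraries and 16.95, 16.7, 49.5, 13.9 and 18.9 CPM in the 5mSC libraries. A single library, 5mSC replicate 3, lay far above the other 19, which ranged between 13.2 and 18.9 CPM. The coefficient of variation over libraries was 43.1% with all 20 and 11.2% without 5mSC replicates 1 and 3. Sirt4 averaged 15.6 ± 1.72 CPM in 24mSC against 23.2 ± 14.8 CPM in 5mSC (mean ± SD of 5 libraries), with a log2 fold change of -0.53 ± 0.24 (95% interval -1.02 to -0.03, edgeR adjusted p = 0.219). Without 5mSC replicate 3 it was -0.10 ± 0.11 (edgeR adjusted p = 0.641). Between 5mEE and 5mSC it was -0.46 ± 0.24 with all libraries (edgeR adjusted p = 0.333) and -0.03 without that library. The 7 choroid plexus markers summed to 376 CPM in 5mSC replicate 3 and to at most 139.8 CPM in 5mEE, 80.2 in 24mEE and 75.6 in 24mSC; their part in the Sirt4 value was not tested.

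Sirt5 encodes the mitochondrial enzyme that removes succinyl, malonyl and glutaryl groups. Sirt5 was at 10.3, 8.77, 9.97, 8.68 and 9.34 CPM in the 24mEE libraries and 8.62, 10.7, 10.3, 9.23 and 10.98 CPM in the 24mSC libraries. It was at 8.61, 10.4, 9.36, 8.82 and 7.59 CPM in the 5mEE libraries and 9.93, 9.14, 9.09, 8.89 and 10.01 CPM in the 5mSC libraries. All groups overlapped, and no library stood apart. Sirt5 averaged 9.98 ± 1.02 CPM in 24mSC against 9.42 ± 0.519 CPM in 5mSC (mean ± SD of 5 libraries), with a log2 fold change of 0.08 ± 0.09 (95% interval -0.11 to 0.28, edgeR adjusted p = 0.656). For 24mEE over 24mSC it was -0.08 ± 0.09 (95% interval -0.28 to 0.11, edgeR adjusted p = 0.999). Sirt5 had the lowest counts of the family, and counting alone gives a coefficient of variation of 6.51% to 7.30% per group.

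**Figure D4:**
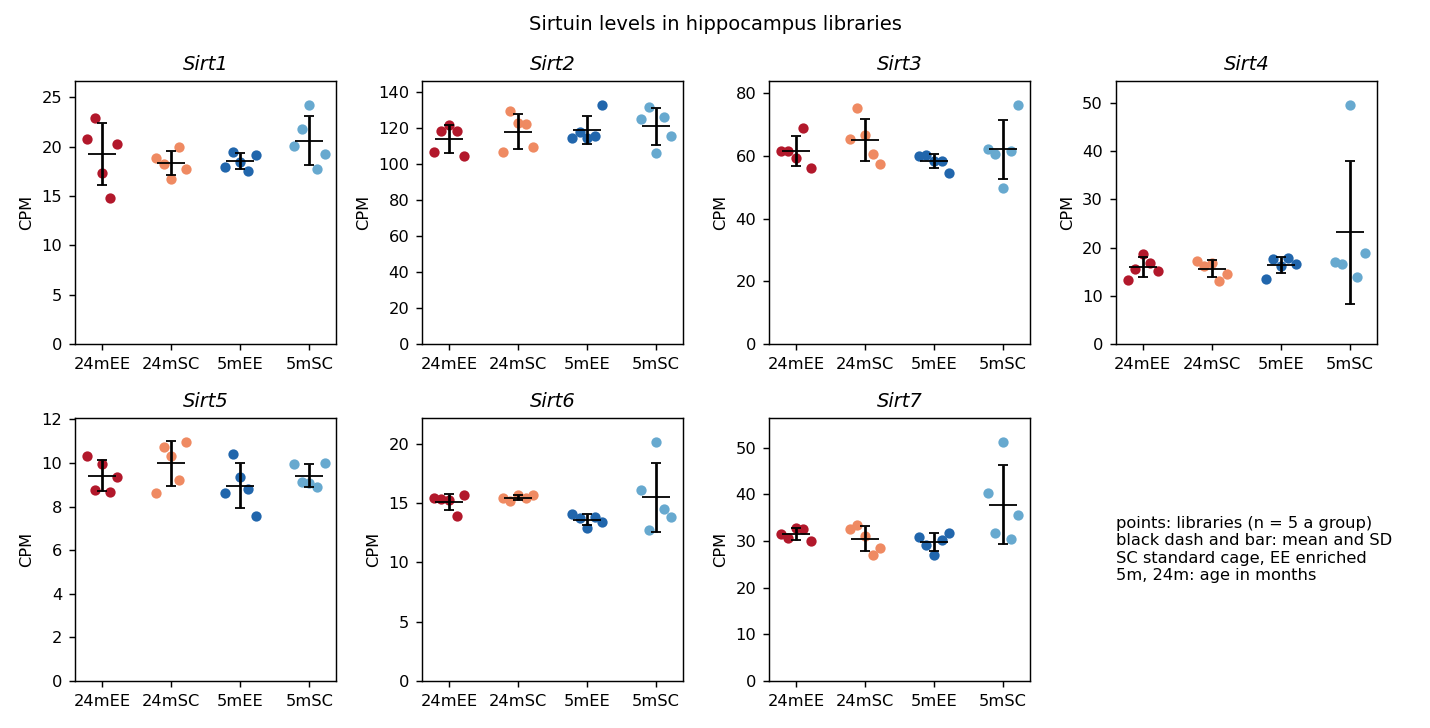
CPM of each sirtuin in every library, by group (24mEE, 24mSC, 5mEE and 5mSC from left to right), with the mean and SD of 5 libraries in black. In every panel the groups of each comparison overlap, and the widest spread is that of Sirt4 in 5mSC, where replicate 3 reached 49.5 CPM and the others 13.9 to 18.9 CPM.

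Other annotated genes overlap or adjoin the sirtuins. Sirt7 shares 124 exon bases with Mafg on the same strand and 54 with Mir6936, Sirt2 shares 42 with Nfkbib and Sirt1 shares 65 with the antisense gene Gm16145, while the exons of Sirt4, Sirt5 and Sirt6 overlap no counted gene. Mafg, a small MAF transcription factor, averaged 113 ± 3.51 CPM in 24mSC against 117 ± 5.33 CPM in 5mSC. Nfkbib, an inhibitor of NF-κB, averaged 17.1 ± 1.64 CPM in 24mSC against 16.1 ± 4.72 CPM in 5mSC. Gm16145 had at most 2 counts in a library and Mir6936 had 0. The starts of Dnajc12 and Ankrd24 lie 739 and 743 bases from those of Sirt1 and Sirt6. Dnajc12, a DNAJ family co-chaperone gene, averaged 11.8 ± 1.12 CPM in 24mSC against 12.5 ± 2.22 CPM in 5mSC. Ankrd24, an ankyrin repeat gene, averaged 33.1 ± 2.35 CPM in 24mSC against 28.8 ± 2.83 CPM in 5mSC (log2 fold change 0.21 ± 0.08, edgeR adjusted p = 0.156). In 24mEE it averaged 27.5 ± 2.08 CPM against 33.1 ± 2.35 CPM in 24mSC (log2 fold change -0.27 ± 0.08, edgeR adjusted p = 0.383), and all 24mEE libraries, at 24.6 to 29.8 CPM, lay below all 24mSC libraries, at 30.2 to 35.6 CPM. None of these neighbours passed in any comparison.

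Among genes of NAD metabolism Cd38, which encodes an NAD glycohydrolase, was the one that passed. It passed between 24mSC and 5mSC, where 0.803% of all genes were called. It was at 5.81, 6.46, 5.86, 5.62 and 5.56 CPM in the 24mSC libraries and 8.71, 7.92, 11.1, 8.74 and 17.6 CPM in the 5mSC libraries. All 24mSC libraries lay below all 5mSC libraries, and the share of all genes without such overlap is not given here. Cd38 averaged 5.86 ± 0.357 CPM in 24mSC against 10.8 ± 3.97 CPM in 5mSC (mean ± SD of 5 libraries), with a log2 fold change of -0.89 ± 0.21 with an edgeR adjusted p of 0.0446. In the 24mEE libraries it was at 7.53, 5.50, 12.9, 8.06 and 6.68 CPM and averaged 8.14 ± 2.84 CPM, against 5.86 ± 0.357 CPM in 24mSC, a log2 fold change of 0.47 ± 0.21 (adjusted p = 0.715), and 24mEE replicate 3 was the highest of its group. The 5mEE libraries averaged 8.89 ± 0.505 CPM. For 24mEE over 5mEE the log2 fold change of Cd38 was -0.13 ± 0.20 (edgeR adjusted p = 0.9997). The call for age in standard cages was lost in 14 of 20 fits that left out 1 library, with edgeR adjusted p values between 0.0139 and 0.109. Without 5mSC replicate 5, the highest library for Cd38, the log2 fold change of 24mSC over 5mSC was -0.63 (edgeR adjusted p = 0.0832).

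The other genes around the sirtuins showed no passing member. Of 10 genes of NAD synthesis and salvage with enough counts 0 passed in either main comparison: Nmnat2, the neuronal NMN adenylyltransferase, was at 160.2 ± 13.3 CPM in 24mSC against 135 ± 23.3 CPM in 5mSC (log2 fold change 0.24 ± 0.10, adjusted p = 0.1704), and Nmnat3, its mitochondrial relative, at 2.08 ± 0.260 CPM in 24mSC against 1.62 ± 0.224 CPM in 5mSC (log2 fold change 0.37 ± 0.16, adjusted p = 0.210) in edgeR's test. Between 24mEE and 24mSC, Slc25a51, the mitochondrial NAD+ carrier, was at 105 ± 4.91 CPM in 24mEE against 100.2 ± 2.75 CPM in 24mSC (log2 fold change 0.07 ± 0.06, adjusted p = 0.999) and Nmnat3 at 1.85 ± 0.270 CPM in 24mEE against 2.08 ± 0.260 CPM in 24mSC (log2 fold change -0.17 ± 0.16, adjusted p = 0.999). Of 7 genes of NAD consumption and nicotinamide removal, 1 passed with age in standard cages, Cd38, where 0.803% of all genes were called. With enrichment at 24 months 0 of the 7 passed, where 0% of all genes were called. Among the 7 is Nnmt, which methylates nicotinamide and uses no NAD+. Sarm1, an NAD+ hydrolase of axon degeneration, was at 39.7 ± 3.63 CPM in 24mSC against 45.9 ± 11.6 CPM in 5mSC (log2 fold change -0.20 ± 0.11, adjusted p = 0.324), and Parp1, the DNA damage poly-ADP-ribose polymerase, was at 137 ± 18.4 CPM in 24mEE against 112 ± 11.9 CPM in 24mSC (log2 fold change 0.28 ± 0.11, adjusted p = 0.633). Without 5mSC replicates 1 and 3 the values for age were 0.12 for Nmnat2, 0.40 for Nmnat3 and -0.11 for Sarm1 on the log2 scale.

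Of 7 regulators of SIRT1 0 passed in edgeR's test. Prkaa2, a catalytic subunit of AMPK, was at 50.1 ± 2.42 CPM in 24mSC against 39.8 ± 8.65 CPM in 5mSC (log2 fold change 0.33 ± 0.10, adjusted p = 0.0981), and Rps19bp1, an activator of SIRT1, at 13.01 ± 0.938 CPM in 24mSC against 15.5 ± 2.75 CPM in 5mSC (log2 fold change -0.26 ± 0.10, adjusted p = 0.152). With enrichment Prkaa1, the other AMPK catalytic subunit, was at 47.02 ± 2.82 CPM in 24mEE against 44.4 ± 1.09 CPM in 24mSC (log2 fold change 0.08 ± 0.06, adjusted p = 0.999), and Prkaa2 at 47.1 ± 3.76 CPM in 24mEE against 50.1 ± 2.42 CPM in 24mSC (log2 fold change -0.09 ± 0.10, adjusted p = 0.999). Of 14 nuclear and cytosolic substrates 0 passed. Crtc2, a CREB coactivator, was at 24.8 ± 0.504 CPM in 24mSC against 28.96 ± 3.23 CPM in 5mSC (log2 fold change -0.22 ± 0.07, adjusted p = 0.0913), and Ppargc1a, which encodes PGC-1α, at 57.2 ± 2.42 CPM in 24mSC against 45.7 ± 8.19 CPM in 5mSC (log2 fold change 0.32 ± 0.10, adjusted p = 0.101). With enrichment Nr1h2, which encodes LXRβ, was at 42.1 ± 3.73 CPM in 24mEE against 48.1 ± 5.68 CPM in 24mSC (log2 fold change -0.19 ± 0.09, adjusted p = 0.738), and Ppargc1a at 51.6 ± 5.36 CPM in 24mEE against 57.2 ± 2.42 CPM in 24mSC (log2 fold change -0.15 ± 0.10, adjusted p = 0.997). Without 5mSC replicates 1 and 3 the values for age were 0.18 for Prkaa2, -0.20 for Rps19bp1, -0.14 for Crtc2 and 0.17 for Ppargc1a on the log2 scale.

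Of 11 mitochondrial substrates 0 passed in edgeR's test. Idh2, the NADP+-dependent isocitrate dehydrogenase that SIRT3 deacetylates, was at 41.03 ± 2.13 CPM in 24mSC against 36.5 ± 4.005 CPM in 5mSC (log2 fold change 0.16 ± 0.07, adjusted p = 0.206). Glud1, glutamate dehydrogenase, was at 253 ± 18.8 CPM in 24mSC against 223 ± 38.2 CPM in 5mSC (log2 fold change 0.18 ± 0.10, adjusted p = 0.307). With enrichment Acadl, a long-chain acyl-CoA dehydrogenase, was at 36.04 ± 2.22 CPM in 24mEE against 38.3 ± 3.62 CPM in 24mSC (log2 fold change -0.09 ± 0.08, adjusted p = 0.999), and Ppif, which encodes cyclophilin D, at 29.9 ± 1.32 CPM in 24mEE against 28.2 ± 1.03 CPM in 24mSC (log2 fold change 0.08 ± 0.08, adjusted p = 0.999). The zinc-dependent histone deacetylases use no NAD+, and of these 11 genes 0 passed either. Hdac1, of class I, was at 8.14 ± 0.459 CPM in 24mSC against 12.4 ± 5.23 CPM in 5mSC (log2 fold change -0.57 ± 0.17, adjusted p = 0.0838), and without 5mSC replicates 1 and 3 its log2 fold change was -0.28. Hdac11, the class IV member, was at 132 ± 6.70 CPM in 24mSC against 116 ± 17.8 CPM in 5mSC (log2 fold change 0.18 ± 0.09, adjusted p = 0.239) and, with enrichment, at 118 ± 2.96 CPM in 24mEE against 132 ± 6.70 CPM in 24mSC (log2 fold change -0.16 ± 0.09, adjusted p = 0.885). Without 5mSC replicates 1 and 3 the values for age were 0.14 for Idh2, 0.11 for Glud1 and 0.12 for Hdac11 on the log2 scale. Hdac5, of class IIa, was at 174 ± 14.1 CPM in 24mEE against 203 ± 16.7 CPM in 24mSC (log2 fold change -0.23 ± 0.09, adjusted p = 0.662).

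The medians of these lists for 24mSC over 5mSC were set against a median of -0.01 over all 16692 genes. They were -0.02 for NAD synthesis and salvage, -0.12 for NAD consumption and nicotinamide removal, 0.11 for SIRT1 regulators, 0.04 for nuclear and cytosolic substrates, 0.11 for mitochondrial substrates and -0.02 for zinc-dependent deacetylases. Without 5mSC replicates 1 and 3 they were -0.01 for NAD synthesis and salvage, -0.11 for NAD consumption and nicotinamide removal, 0.06 for SIRT1 regulators, 0.01 for nuclear and cytosolic substrates, 0.01 for mitochondrial substrates and, with the sign turned, 0.04 for zinc-dependent deacetylases. For 24mEE over 24mSC they were 0.00 for NAD synthesis and salvage, 0.10 for NAD consumption and nicotinamide removal, -0.04 for SIRT1 regulators, -0.02 for nuclear and cytosolic substrates, -0.01 for mitochondrial substrates and -0.03 for zinc-dependent deacetylases. In the marker lists, 1 of 7 microglia markers passed as higher in 24mSC than in 5mSC, where 0.803% of all genes were called. In that comparison 1 of 7 oligodendrocyte precursor markers passed as lower. Between 24mEE and 5mEE, where 0.108% of all genes were called, 1 of 7 precursor markers passed as lower. Without 5mSC replicates 1 and 3, where 97 of 16947 genes passed between 24mEE and 5mEE, 2 of 7 did. Among markers of mature oligodendrocytes, astrocytes, neurons, dentate granule cells, endothelium, choroid plexus, neocortex and striatum 0 passed in any comparison. Without 5mSC replicates 1 and 3, where 363 of 16947 genes passed between 24mSC and 5mSC, 1 of 7 striatum markers passed as higher in 24mSC. For 24mEE over 24mSC the median log2 fold change was 0.35 for dentate granule cells, with 7 of 7 positive, and -0.51 for neocortex, with 7 of 7 negative. The summed level of the dentate granule cell markers was 526 to 639.8 CPM in 24mEE and 303 to 578 CPM in 24mSC, and that of the neocortex markers was 135 to 224 CPM in 24mEE and 188 to 251 CPM in 24mSC. For 24mSC over 5mSC the median was 0.40 for neocortex, with 5 of 7 positive, and -0.85 for choroid plexus, which turned to 0.45 without 5mSC replicates 1 and 3. The part of these markers in the values of Cd38, of the lists and of the sirtuins was not tested.

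Genes whose levels ordered the 20 libraries most like a sirtuin were found by Spearman correlation among 13118 genes, as a description. For Sirt2 they were Qdpr, dihydropteridine reductase (rho = 0.91), and Cd9, a tetraspanin (0.88). For Sirt3 they were Fbxo2, an F-box protein (0.91), and Gpx1, a glutathione peroxidase (0.90), and for Sirt7 Ddx39, an RNA helicase (0.89), and Irak1bp1 (0.89). For Sirt1 they were Zscan21, a zinc finger protein (0.87), and Skp2, an F-box protein (0.83), and for Sirt6 Tspan4, a tetraspanin (0.87), and Naglu, a lysosomal glucosaminidase (0.85). Sirt4 and Sirt5 had lower values, with Erich6 (0.78) and Cdpf1 (0.78) for Sirt4 and Zfp865 (0.71) and Pygm, muscle glycogen phosphorylase (0.71), for Sirt5. Between sirtuins the highest value was that of Sirt4 and Sirt7 (0.57), and the lowest that of Sirt2 and Sirt6 (-0.36). All points share library depth and scaling.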

How the data were processed

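Whole-number read counts per Ensembl gene in 20 libraries, 5 per group, were used as deposited. Per the submitters' processing notes the authors made these counts with featureCounts 1.4.6-p4 after alignment by STAR 2.4.1d to GRCm38, with reads extracted by bcl2fastq 1.8.2, from single-end reads of 50 nt and an unstranded kit. The paper's own results came from another alignment and another count, and from more mice in each group it compared than the 5 here. Its tests accounted for the sequencing run, which the labels do not give. A deposited RPKM table was not used here. Symbols came from GENCODE M21 and matched 99.1% of identifiers.

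Counts were fitted in R 4.3.3 with edgeR 4.0.16 (TMM, filterByExpr with a least count of 10, quasi-likelihood test) in 1 model of 4 groups, which left 16692 genes. Benjamini-Hochberg adjustment ran over all of these genes, with 0.05 as the threshold for passing. The SE is the one implied by the F statistic. Log2 CPM used a prior count of 2. The pipeline was tested on simulated counts. Alternatives were DESeq2 size factors, the DESeq2 1.42.0 Wald test, no filter, a CPM of at least 1 in 5 libraries, only the groups compared, leaving out 5mSC replicates 1 and 3, and leaving out each library in turn. Libraries range from 10.96 to 34.1 M counts. The 95% intervals of log2 fold changes rest on the SE of the fit, which includes the spread between libraries. The coefficients of variation given for counting alone cover counting error only.

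Replicate numbers follow the order of deposition and pair no samples. The members, lists and alternatives were chosen with earlier results of these data known. The text names the 7 sirtuins; of each other list but the markers, in 24mSC vs 5mSC and 24mEE vs 24mSC, up to 4 passing genes by smallest p or, where fewer than 2 pass, the 2 with the smallest p; genes that overlap a sirtuin or start within 1 kb of its start; the 2 genes most like each sirtuin with a mean log2 CPM of at least 1; and Mbp and Mog. Some genes are not reported here and were left out of their lists and scores after the values were seen. Settings for Cd38 were added after its values were seen.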

Additional observations from a re-analysis of the deposited data

Results flagged for a closer look

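In 28 checks (7 sirtuins in 4 groups of 5 libraries) 3 groups held a library far from its neighbours by Dixon's criterion at 95%, and chance gives about 1 in 20. Sirt4 in 5mSC replicate 3 was at 49.5 CPM, with the other 4 libraries at 13.9 to 18.9 CPM. The same library holds 26.8% of its counts on mitochondrial ribosomal RNA. Sirt2 in 5mEE replicate 5 was at 133 CPM, with the other 4 at 114 to 118 CPM. Its mature oligodendrocyte score of 7.31 was the highest of the 5mEE libraries. Sirt6 in 24mEE replicate 4 was at 13.9 CPM, with the other 4 at 15.2 to 15.7 CPM.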

How the results depend on the processing

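No sirtuin passed in any comparison under any of the alternatives run, and the lowest adjusted p of a sirtuin was 0.0507, for Sirt7 between 24mSC and 5mSC without 5mSC replicate 2. The count of all genes that passed did depend on the setting. Between 24mSC and 5mSC it was 134, and it was 59 with no filter, 3 with only the groups compared, 363 without 5mSC replicates 1 and 3 and 759 with DESeq2, and 30 to 1127 with 1 library left out. Between 24mEE and 24mSC it was 0, and 187 with only the groups compared, 10 without 5mSC replicates 1 and 3, 31 with DESeq2, and 0 to 10 with 1 library left out. Between 5mEE and 5mSC it was 0, and 30 with DESeq2 and 0 to 1 with 1 library left out. Between 24mEE and 5mEE it was 18, and 9 with no filter, 52 with only the groups compared, 97 without 5mSC replicates 1 and 3, 39 with DESeq2, and 3 to 45 with 1 library left out. For the interaction it was 0, and 1 without 5mSC replicates 1 and 3, 6 with DESeq2, and 0 to 1 with 1 library left out. The cause was not tested. Between 24mSC and 5mSC, Cd38 kept its negative sign in 26 of 26 alternatives and its call in 10 (edgeR or DESeq2 adjusted p from 0.00492 to 0.222). The correlation of Sirt2 with the oligodendrocyte score was 0.80 without 5mSC replicates 1 and 3. No paired analysis was possible because the labels give no replicate numbers that pair the groups.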
